A study of Mus musculus with 12 samples.

Results

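Untreated MC3T3-E1 cells, the starting state against which TNFa and BMP4 were tested, were profiled in 3 of the 12 polyA RNA-seq libraries of the series. MC3T3-E1 is a mouse calvarial osteoblast precursor line, and the labels name its cell type as osteoblast and give no genetic change. The 4 groups hold 3 libraries each: untreated cells, cells given TNFa (10 ng/mL), cells given BMP4 (10 ng/mL), and cells given TNFa and then BMP4 (TNFa+BMP4). All groups, the untreated one included, were grown in 10% serum and moved to 2.5% serum for 30 min. By the treatment protocol TNFa was then present or not for 30 min before BMP4 or no BMP4 for 3 h; elsewhere the labels give 3 h for each factor, which leaves the TNFa exposure unsettled. An unexplained p65 stands in the titles of the TNFa libraries. The 3 untreated libraries were chosen by their label alone. Replicate 1 was in batch 1 and replicates 2 and 3 were in batch 2, as in every group, so that in untreated cells batch 1 is a single library. The labels do not say that replicates came from separate cultures, and p-values therefore measure the spread between these samples only.

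The untreated libraries held 14701539, 13890823 and 15211103 tags, within the range of 13737314 to 20579257 over all 12. Levels are the authors' deposited log2 values, given as mean ± SD over 3 untreated libraries (n = 3) or library by library in the order batch 1, then the 2 of batch 2. Levels of different genes are compared per kb of exon, and each gene's percentile per kb is its place among the 11297 protein-coding genes with an untreated mean of at least 4. That minimum marks the range in which differences were tested. Of all protein-coding entries 54.1% reached it, the share to set beside each count of list members at 4 or above. An entry at 0 in all 12 libraries is written as listed at 0. Deposited values of low genes vary little between libraries, so a near-equal value in all libraries below 4 is not a sign of precision. RNA of a bulk culture was measured, in which fewer cells of a type and less RNA per cell cannot be told apart.

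Osteoblasts arise from mesenchymal progenitors under Runx2 and then Sp7 (osterix), secrete a matrix made mostly of type I collagen, and later mineralize it with the help of alkaline phosphatase and small acidic glycoproteins. BMP ligands signal through paired type I and type II receptors that phosphorylate Smad1, Smad5 and Smad9, which enter the nucleus with Smad4. TNF binds Tnfrsf1a, which assembles a complex around Tradd, Traf2 and Ripk1 that either activates NF-kB or, when inhibited, recruits Fadd and Casp8 for apoptosis or Ripk3 and Mlkl for necroptosis.

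The untreated transcriptome was headed by matrix genes before correction for length, and by ribosomal genes and Eef1a1 per kb. Col1a2 and Col1a1, the 2 chains of type I collagen, had the highest log2 levels of all 25124 entries before correction for length, at 17.52 ± 0.07 and 17.33 ± 0.10. They were followed by fibronectin Fn1 (17.09 ± 0.31), the translation factor Eef1a1 (16.89 ± 0.25), the collagen-binding protein Sparc (16.28 ± 0.03), the translation factor Eef2 (16.19 ± 0.21) and the intermediate filament Vim (16.14 ± 0.06). Rps2, Hsp90ab1, Ahnak, Anxa2 and Rplp0 completed the highest 12, at 15.65 down to 15.13. Per kb the order changed in favour of short ribosomal transcripts: Rpl41 stood at 16.14, Eef1a1 at 16.06, Rps2 at 15.66 and Rps26 at 15.33. Vim (15.28), Col1a2 (15.15), Sparc (14.89), Anxa2 (14.85) and Col1a1 (14.77) remained among the highest 12 per kb, with the ribosomal genes Rplp1, Rps18 and Rpl19. Ribosomal genes and Eef1a1 have many near-identical pseudogenes, and how reads shared with these were assigned is not given in the sources used here. Gapdh, which also has many such copies, was at 10.27 per kb, below Actb at 13.93 per kb. The 3 highest entries held 4.22% of the summed linear level in the batch 1 library and 3.55% and 3.75% in the batch 2 libraries. Of the 25124 entries, 11777 (46.9%) had an untreated mean of at least 4, 5924 lay below it, and 7423 (29.5%) were listed at 0.

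Promoter sequence varied with the untreated level. Both measures were made on 300 bases, from 250 before to 50 after the annotated start, for the 15614 protein-coding entries whose symbol and start site matched the RefSeq promoter table (GRCm38.p6, the build of the files). Observed over expected CpG had a median of 0.185 among the 3985 promoters of genes listed at 0 and of 0.348 among the 3024 of genes below 4. It was 0.63 in the lowest decile per kb of genes at 4 or above, 0.783 in the third and 0.829 in the highest, against 0.621 over all promoters. The motif TATAAA, searched on the gene's own strand anywhere in these 300 bases, was in 18.4% of promoters of genes listed at 0 (95% Wilson interval 17.2 to 19.7%) and in 8.69% of all. Its share was 9.66% (8.65 to 10.8%) for genes below 4, between 2.21% and 4.76% in deciles 1 to 9 and 8.13% (6.49 to 10.1%) in the highest decile. The highest decile thus lay above the other deciles and near the genes below 4, and its interval did not reach that of the ninth (1.88 to 4.12%). Median GC content was 45.7% in promoters listed at 0, 54.7% for genes below 4, 61.3% in the third and in the highest decile and 63% in the ninth. Median GC was lowest in the class with the highest TATAAA share. The third and the highest decile had the same median GC and shares of 3.6% and 8.13%. Whether GC content had a part in these shares was not tested. With either strand counted, the shares were 26.6% at 0, 11% in the highest decile and 13% of all. A letter match is not a bound site, and genes of a family are not independent.

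**Figure D1:**
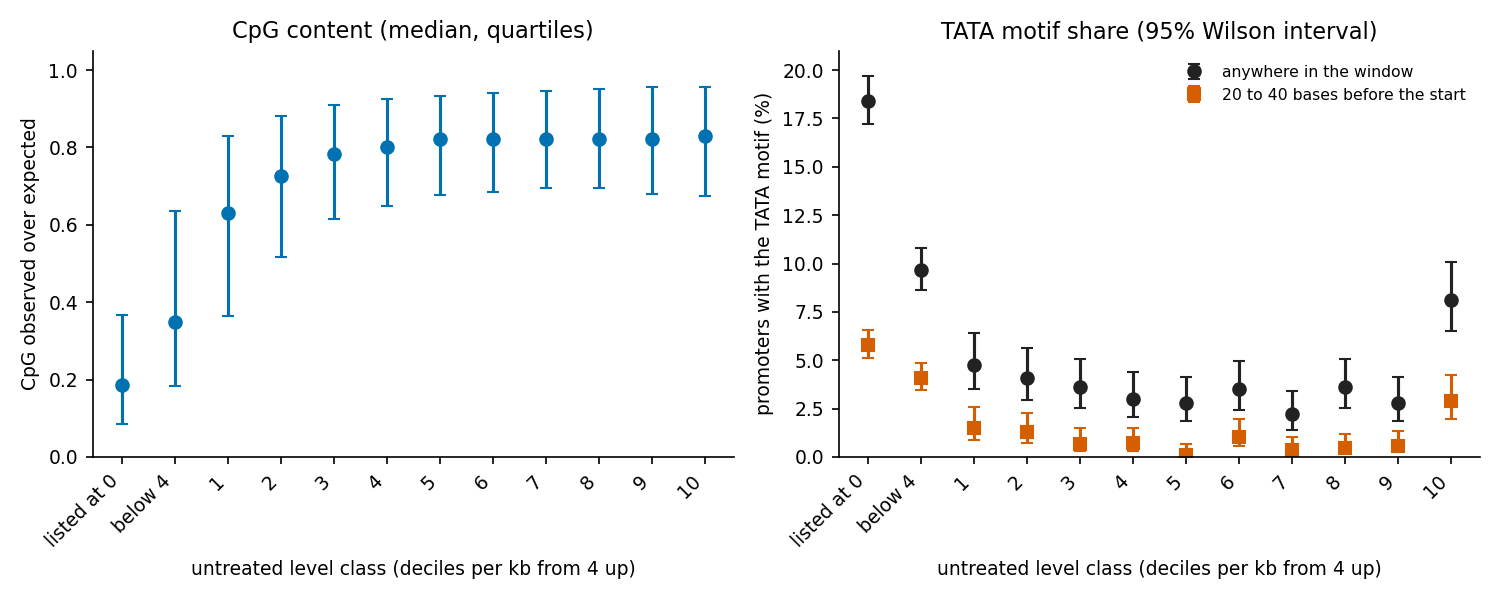
Promoter features by untreated level. The x axis gives the level class of 15614 protein-coding genes (listed at 0, below 4, then deciles of the log2 level per kb). Left, the median and quartiles of CpG observed over expected go from 0.185 to 0.829. Right, the share of promoters with the TATA motif and its 95% Wilson interval, anywhere in 300 bases (black) or 20 to 40 bases before the start (orange), is lower in deciles 1 to 9 than at 0, below 4 or in decile 10.

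5 promoters are shown for contrasts in level, CG and TATAAA and not as typical of their class, each as the 250 bases before the start, 5′ to 3′ on the gene's strand, with CG dinucleotides and TATAAA in capitals. Col1a2 (chr6:4505368-4505617, plus strand) and Vim (chr2:13574061-13574310, plus strand) belong to the highest decile. Tnf (chr17:35202008-35202257, minus strand), Acan (chr7:79052976-79053225, plus strand) and Adipoq (chr16:23146286-23146535, plus strand) were listed at 0. They were chosen after their values were seen.
Col1a2: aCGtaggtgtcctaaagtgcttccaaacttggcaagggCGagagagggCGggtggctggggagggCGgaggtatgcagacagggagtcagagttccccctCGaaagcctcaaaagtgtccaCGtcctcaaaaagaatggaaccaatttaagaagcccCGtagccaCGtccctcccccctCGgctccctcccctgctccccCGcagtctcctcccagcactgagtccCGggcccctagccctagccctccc
Vim: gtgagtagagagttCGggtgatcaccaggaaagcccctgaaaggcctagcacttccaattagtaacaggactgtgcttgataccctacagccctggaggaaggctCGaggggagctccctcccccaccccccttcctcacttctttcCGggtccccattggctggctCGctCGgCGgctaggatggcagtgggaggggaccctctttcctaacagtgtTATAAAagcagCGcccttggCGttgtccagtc
Tnf: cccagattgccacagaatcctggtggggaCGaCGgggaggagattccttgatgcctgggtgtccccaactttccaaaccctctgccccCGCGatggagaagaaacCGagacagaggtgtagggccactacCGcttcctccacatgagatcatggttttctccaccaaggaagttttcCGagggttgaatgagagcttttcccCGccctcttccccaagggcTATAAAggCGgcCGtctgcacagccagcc
Acan: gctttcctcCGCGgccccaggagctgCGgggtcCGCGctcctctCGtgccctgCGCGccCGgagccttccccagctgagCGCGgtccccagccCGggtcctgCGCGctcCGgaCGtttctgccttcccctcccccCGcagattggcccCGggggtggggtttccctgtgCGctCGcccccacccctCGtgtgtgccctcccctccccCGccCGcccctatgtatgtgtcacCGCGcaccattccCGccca
Adipoq: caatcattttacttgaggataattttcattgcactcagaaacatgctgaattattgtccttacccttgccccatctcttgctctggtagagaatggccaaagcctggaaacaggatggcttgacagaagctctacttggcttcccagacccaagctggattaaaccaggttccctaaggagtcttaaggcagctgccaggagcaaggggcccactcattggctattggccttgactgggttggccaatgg
Vim and Tnf, at opposite ends of the level scale, both carry TATAAA, 32 and 29 bases before the start, with 8 and 10 CG. The Col1a2 window has 11 CG and no TATAAA. Among the genes listed at 0, Acan, which encodes the cartilage proteoglycan aggrecan, has 26 CG and Adipoq, which encodes the fat hormone adiponectin, has none, so promoters of one class can differ widely. By observed over expected CpG, Col1a2 (0.47) and Vim (0.42) lay below the lower quartile of the highest decile (0.674), and Tnf (0.44) and Acan (0.80) lay above the upper quartile of genes listed at 0 (0.368).

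Of the bone markers, Col1a1, Runx2 and Pth1r were present, Sp7 was low, and most mature osteoblast and mineralization genes were below 4. Runx2, the transcription factor that starts the lineage (NM_001145920, mm10 chromosome 17, 44603989 to 44736648), was at 10.71, 10.44 and 10.41, percentile 62.9 per kb. Pth1r, the parathyroid hormone receptor (chromosome 9, 110722085 to 110742610), was at 9.19, 8.59 and 8.74, percentile 59.7. Sp7, which acts after Runx2 (chromosome 15, 102356603 to 102366968), was at 5.60, 4.91 and 4.88, percentile 4.44. All 3 were highest in the batch 1 library. Col1a1 (chromosome 11, 94936224 to 94953042) was at 17.41, 17.22 and 17.35, percentile 99.9. With 12 of 12 osteoblast transcription factors at 4 or above, against 54.1% of all protein-coding entries, the list ran per kb from Atf4 (10.85), Cbfb (9.31), the partner of Runx2, and Twist1 (8.40) down to Msx2 (3.75) and Sp7 (3.52).

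Of 13 mature osteoblast and mineralization genes 5 (38.5%) reached 4, beside 54.1% of all protein-coding entries. Spp1, the acidic glycoprotein osteopontin, was high at 12.72, 12.49 and 12.39, percentile 98.4, and the pyrophosphate transporter Ank was at 11.31 ± 0.35. Phospho1, a phosphatase of mineralizing vesicles, was at 6.03 ± 0.31 and the phosphate transporter Slc20a2 at 9.00 ± 0.21. Alpl, tissue-nonspecific alkaline phosphatase, was at 0.33 in each library, and Ibsp, bone sialoprotein, was at -1.24. The osteocalcin genes Bglap, Bglap2 and Bglap3, near-identical copies between which reads may be split, were at -0.02, 0.35 and -0.96. Among osteocyte genes, Sost and Mepe were listed at 0, Fgf23 was at -1.73 and Dmp1 at 1.07, while Pdpn (11.22 ± 0.23) and Fam20c (10.72), which other cells use too, were at 4 or above.

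**Figure D2:**
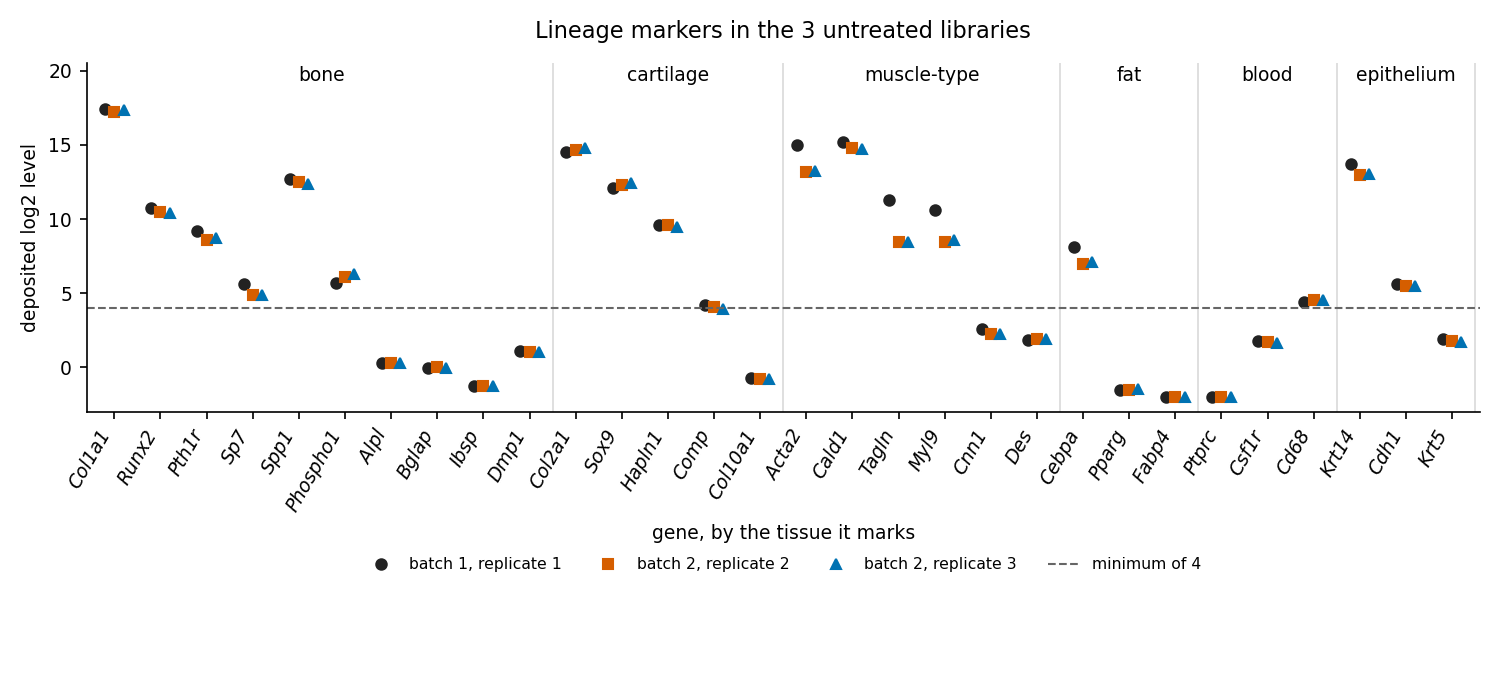
Lineage markers in untreated cells. Each point is the deposited log2 level (y axis) of a gene (x axis, grouped by the tissue it marks) in 1 of the 3 libraries; the dashed line is the minimum of 4. Col1a1, Runx2, Pth1r and Spp1 are above it while Alpl, Bglap, Ibsp and Dmp1 are below; Acta2, Tagln and Myl9 stand higher in batch 1 than in both batch 2 libraries.

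Genes of the collagen assembly list, which also holds metalloproteinase inhibitors, accompanied the collagens. Of the 20 collagens 17 were at 4 or above and 12 were in the highest 10% of protein-coding genes per kb. Col6a1 (12.65 per kb) ranked next after both type I chains, while Col11a1 (2.05) was the lowest and Col7a1, Col14a1 and Col24a1 were below 4. Of the 20 collagen assembly genes 19 were at 4 or above: Timp2, a metalloproteinase inhibitor, stood at 13.26 per kb, the chaperone Serpinh1 at 12.72 and the hydroxylase subunit P4hb at 12.50. The crosslinking enzyme Lox was at 14.80, 14.71 and 14.72, and its relative Loxl2 was at 1.83. Among 24 non-collagen matrix genes, Sparc (14.89 per kb), Fn1 (14.02) and the proteoglycan Bgn (13.55) led. Mgp, which inhibits calcification, was at 13.00, 12.38 and 12.38, percentile 99.3. Eln (elastin) at -2.21, Fbln1 at -1.50, Lum at 3.23 and Omd at 3.62 were below 4.

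Markers of other lineages were mostly low, with exceptions. Of the chondrocyte list, Col2a1, the type II collagen of cartilage, was at 14.52, 14.69 and 14.80, percentile 98.7, and its activator Sox9 was at 12.12, 12.28 and 12.40, percentile 94. Hapln1, a cartilage link protein, was at 9.54 ± 0.06, but Acan and Col9a1 were listed at 0 and Col10a1 was at -0.75. So 6 of 10 chondrocyte markers (60%) were at 4 or above, near the 54.1% of all protein-coding entries and without the proteoglycan core gene. The median percentile per kb of these 6 was 39.9. Of the smooth muscle and myofibroblast list 6 of 8 were at 4 or above, led per kb by Cald1 (12.86), Acta2 (12.45) and Tpm1 (12.37), with Cnn1 at 2.37 and Myh11 at 0.57. In the epithelial list Krt14 was at 13.71, 12.97 and 13.06, percentile 98.9, while Epcam, Krt8, Krt18 and Cldn4 were listed at 0, Krt5 was at 1.82 and Cdh1 at 5.53. Keratin genes resemble each other, and reads shared with Krt14 copies may be split.

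Of 8 adipocyte markers only Cebpa (7.39 ± 0.65) reached 4; Adipoq, Plin1 and Lpl were listed at 0. Of 11 macrophage and osteoclast markers, the pan-leukocyte gene Ptprc was at -1.97, Adgre1, Ocstamp, Dcstamp and Calcr were listed at 0, and the protease Ctsk (7.80), Lyz2 (4.74) and Cd68 (4.48) were at 4 or above. Only Pecam1 (4.83) of 7 endothelial markers and Acta1 (4.33) of 8 skeletal muscle markers reached 4; Emcn, Cldn5 and Myf5 were listed at 0. Tubb3 (10.25) and Map2 (7.57) did so among 6 neural markers, of which Rbfox3 was listed at 0. All 12 proliferation genes were at 4 or above, with Ccnd1 (11.07 per kb), Pcna (10.80) and Top2a (10.47) highest.

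Genes of the BMP pathway were present from ligand and receptor to target. Of 16 BMP and TGF-beta ligands 7 (43.8%) were at 4 or above, and of 14 receptors 12 (85.7%). The share of all protein-coding entries was 54.1%. Bmp2, Bmp3, Bmp5, Bmp7 and Gdf10 were listed at 0, and Gdf6 and Gdf5 were at -1.22 and -0.98. Bmp4 itself (chromosome 14, 46383525 to 46390669) was at 7.27 in the batch 1 library and at 8.76 and 8.86 in the batch 2 libraries, which do not overlap it. Tgfb3 (8.79 per kb), Bmp4 (7.26) and Tgfb1 (6.95) were the highest ligands. Of the type I receptors that bind BMPs, Bmpr1a was at 10.79, 10.66 and 10.64 and Acvr1 at 9.68, 9.58 and 9.60, whereas Bmpr1b was at -1.97 and Acvrl1 at -1.49. The type II receptor Bmpr2 was at 10.88, 10.90 and 10.79, percentile 53.3 per kb. The SDs of these 3 receptors over the libraries were 0.08, 0.05 and 0.06. Tgfbr2 (10.73 per kb), the TGF-beta type II receptor, was the highest receptor of the list, and the coreceptor Eng (2.96) and Acvr2b (2.40) the lowest of the 12 at 4 or above.

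All 13 Smads and Smad regulators were at 4 or above. Smad4 was at 10.75, 10.74 and 10.81, Smad5 at 10.33, 10.51 and 10.38 and Smad1 at 8.66, 8.40 and 8.65. Per kb the list ran from the ubiquitin ligase Smurf2 (9.85), Tob1 (9.36) and Smurf1 (8.21) to Skil (5.38) and Smad9 (4.77). Of 12 BMP antagonists 10 were at 4 or above: the secreted proteins Fstl1 (12.11 per kb), Chrdl1 (9.13) and Twsg1 (9.04) were highest. Bambi (2.28), a decoy receptor, was the lowest of the 10, Grem1 was at 0.58 and Cer1 was listed at 0. Of 7 target genes 6 were at 4 or above before any BMP4 was added. Id4 (11.52 per kb), Id3 (10.54) and Id2 (8.64), which block basic helix-loop-helix factors, were highest, and Id1 was at 8.02, 7.94 and 8.20. Hey1 was at 3.24.

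Few TNF ligands and all genes of the receptor complex were at 4 or above, beside 54.1% of all protein-coding entries. Tnf, Lta and Tnfsf11 (RANKL) were listed at 0, Fasl was at -2.21 and Ltb at -1.97; of 7 ligands only Tnfsf12 (7.97 ± 0.07) and Tnfsf10 (4.91 ± 0.12) reached 4. Tnfrsf1a, the main TNF receptor, was at 10.47, 10.61 and 10.67, percentile 88.9 per kb. Tnfrsf1b, the second TNF receptor, was at 7.74, 7.88 and 7.93, percentile 19.7. Tnfrsf12a, the receptor of Tnfsf12, was highest of the 10 receptors at 10.35 per kb, followed by Tnfrsf1a (9.48) and Ltbr (9.12). Tnfrsf11a (RANK) was listed at 0, and Tnfrsf19 was at -2.21 and Cd40 at -1.27.

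All 24 genes of the TNF receptor complex were at 4 or above, with a median of 7.30 per kb beside 7.25 for all protein-coding genes at 4 or above. The adaptor Tab2 (8.94 per kb), the ubiquitin ligase subunit Rbck1 (8.64) and the kinase Map3k7 (8.47), to which Tab2 binds, were highest. Ripk1 was at 9.44, 9.58 and 9.54, percentile 50.6. The lowest were Tab3 (4.89) and Traf1 (2.33). In the NF-kB list 14 of 15 were at 4 or above, led by Rela (9.36 per kb), Nfkb2 (9.05) and Nfkb1 (8.46), with Nfkbid listed at 0. Rela, the p65 subunit, was at 10.46, 10.88 and 10.95, percentile 87.5. Its inhibitor Nfkbia was at 8.34, 8.51 and 8.64, percentile 63.3, and Rel (5.83 per kb) and Bcl3 (5.22) were lowest.

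Genes for apoptosis and necroptosis were both present, and most inflammasome genes were below 4. All 11 caspases and apoptosome genes were at 4 or above, between 6.09 and 8.11 per kb, around the general median of 7.25. Diablo (8.11) and Htra2 (8.01), mitochondrial proteins that counter inhibitors of apoptosis, were highest. Casp8, the initiator caspase of death receptors, was at 8.98, 8.64 and 8.63, percentile 53.3. Ripk3, which phosphorylates Mlkl in necroptosis, was at 8.29, 8.44 and 8.59 and Mlkl, the membrane effector, at 8.73, 8.54 and 8.54, percentiles 55.2 and 57.7. Per kb, Casp8, Ripk3 and Mlkl were at 7.38, 7.48 and 7.59, near the general median, with SDs over the libraries of 0.20, 0.15 and 0.11. Of 14 necroptosis and pyroptosis genes 7 were at 4 or above, with the membrane rupture gene Ninj1 (9.25 per kb) highest. Nlrp1b was listed at 0, and Casp1 (-1.49), Il1b (-2.21), Aim2 (-0.40), Nlrp3 (0.07), Pycard (0.31) and Zbp1 (2.69) were below 4.

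In the BCL2 family, the killers Bax (9.97 per kb), Bak1 (9.52) and Bid (8.96) were among 9 of 11 death genes at 4 or above. Bik was listed at 0 and Hrk was at -1.97. Of 8 survival genes 4 were at 4 or above: Mcl1 (9.76 per kb), Bcl2l1 (7.77), Bcl2l2 (6.92) and Bcl2 (2.74). The 3 near-identical Bcl2a1 copies were listed at 0. Bcl2, at 5.85, 5.59 and 5.34, was at percentile 1.86 while Mcl1, at 11.50, 11.64 and 11.54, was at percentile 91.3.

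**Figure D3:**
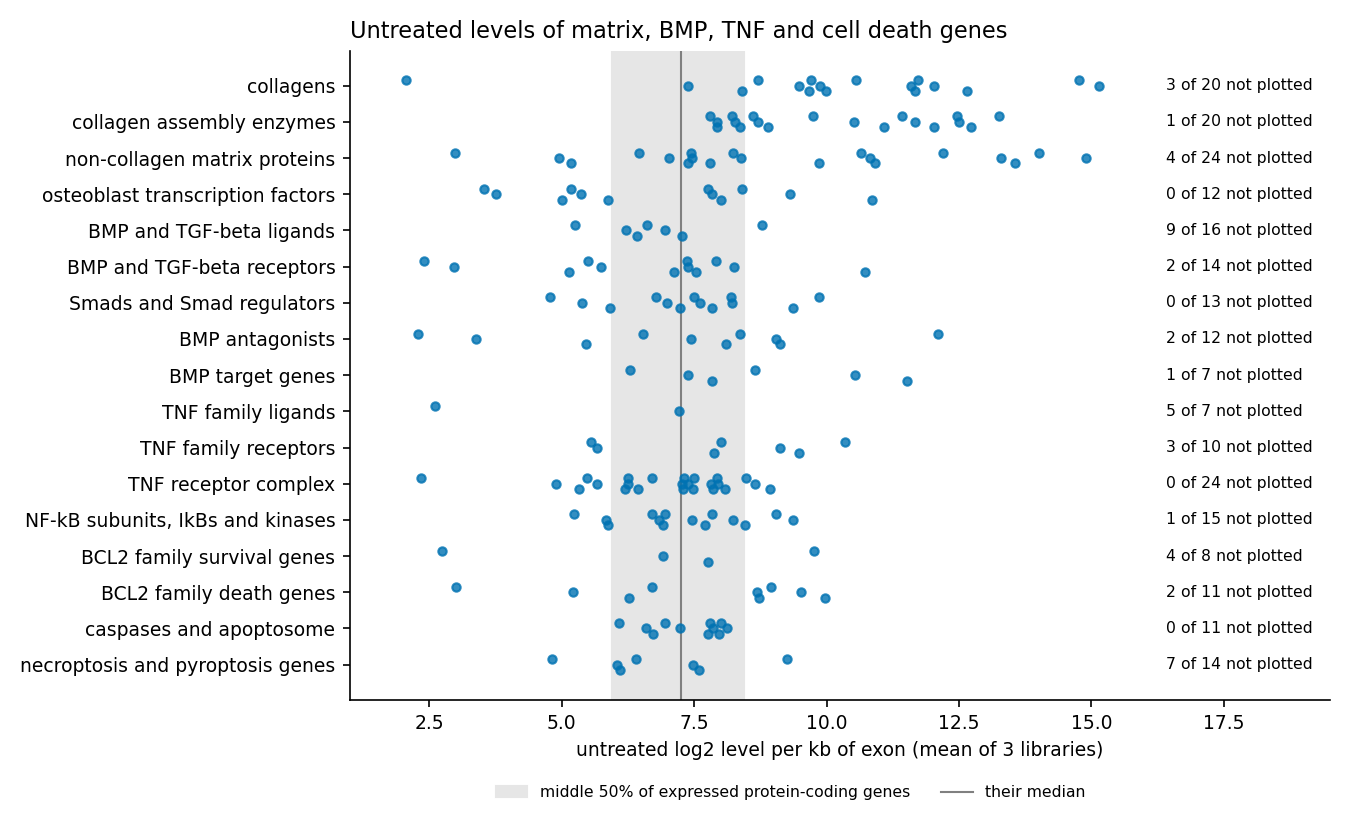
Untreated log2 level per kb of exon (x axis, mean of 3 libraries) for members of 17 gene lists (y axis). Each point is 1 gene at 4 or above; members below 4 or listed at 0 are counted at the right. The grey band spans 5.95 to 8.43, the 25th to 75th percentile of the 11297 protein-coding genes, with their median of 7.25: collagens reach 15.15 and caspases lie between 6.09 and 8.11.

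Other receptors were widely present. Of 22 growth factor and hormone receptors 20 were at 4 or above, with Rarg (9.90 per kb), a retinoic acid receptor, Pdgfrb (9.43) and Fgfr1 (9.21) highest, Esr1 (3.78) and Ptger4 (3.29) lowest, and Ptger2 and Kdr listed at 0. Of 14 Wnt and Notch receptors 12 were at 4 or above, led by Fzd2 (9.51), the Wnt coreceptor Lrp5 (9.41) and Ryk (8.89), and Notch4 and Notch3 were at 3.92 and 2.76. All 14 cytokine and pattern receptors were at 4 or above, with Ifngr1 (8.92), Il6st (8.73) and Ifngr2 (7.37) highest and Tlr3 (5.47) and Il6ra (4.80) lowest. All 13 immediate-early genes were at 4 or above after the 30 min change to 2.5% serum and the time that followed, from Jund (10.43) and Jun (9.59) to Fosb (2.67).

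How far the levels held between batches was asked next, as the difference between the mean of the 2 batch 2 libraries and the batch 1 library, on the log2 scale with its SE. Over the 11765 genes tested, 10429 (88.6%) differed by less than 0.5 between batches. The 2 batch 2 libraries differed by a median of 0.083, and 99.9% of genes by less than 0.5, while batch 1 differed from them by medians of 0.195 and 0.203. limma called 44.7% of all genes at an adjusted p under 0.05, 22.7% higher and 22% lower in batch 2, most of them by small amounts: 49 genes were higher and 97 lower by 1 or more. Of the 304 list members tested, 169 were called, 59 higher and 110 lower in batch 2, and 241 (79.3%) differed by less than 0.5. Since batch 1 has 1 library in each group, the model took its spread from the pairs of batch 2 libraries alone. Every p-value of a batch difference therefore assumes that the lone batch 1 library varies as batch 2 libraries do, which these libraries cannot show.

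For signalling lists the counts within 0.5 stand beside the 88.6% of all genes, and lists this small cannot be ranked by them. Differences were under 0.5 for 23 of 24 TNF receptor complex genes, 11 of 11 caspase and apoptosome genes, 8 of 9 BCL2 death genes, 11 of 12 BMP and TGF-beta receptors, 11 of 13 Smads and regulators, 6 of 7 TNF receptors and 12 of 14 NF-kB genes. They were under 0.5 for 7 of 10 BMP antagonists, 5 of 7 BMP and TGF-beta ligands and 4 of 6 BMP targets. The same held for 4 of 4 BCL2 survival genes, 2 of 2 TNF ligands and 6 of 7 necroptosis and pyroptosis genes. Bmpr2, Acvr1, Smad4, Smad5, Ripk1 and Id1 each differed by 0.12 or less, and none was called. Rela was higher in batch 2 by 0.46 ± 0.06 and Casp8 lower by 0.35 (-0.35 ± 0.09), each against the single batch 1 library. Tnfaip3, the NF-kB feedback inhibitor, was the exception in the receptor complex at -0.88 ± 0.09.

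Fewer members of the non-collagen matrix, collagen, contractile and cell cycle lists stayed within 0.5 than the 88.6% of all genes. Among collagens 12 of 17 did, whereas 18 of 19 collagen assembly genes stayed within 0.5. Of the 20 non-collagen matrix genes 9 differed by less than 0.5. In batch 2, 15 were called lower and 1 higher, beside 22% and 22.7% of all genes. Fmod, a small collagen-binding proteoglycan, was at 10.52, 6.97 and 6.82, a difference of -3.62 ± 0.10. Postn (periostin) was at 12.03, 9.03 and 8.90, and Ogn at 10.40, 8.47 and 8.63, with differences of -3.07 ± 0.08 and -1.85 ± 0.10. In all 3 the batch 1 library stood apart. Tnc (-0.96 ± 0.10) and Aspn (-1.08 ± 0.10) followed, as did Timp1 (-1.04 ± 0.06) among assembly genes and Col15a1 (-1.23 ± 0.06) and Col18a1 (-0.90 ± 0.07) among collagens. Col1a1 (-0.13 ± 0.06) and Col1a2 (-0.10 ± 0.06) were not called, but Col1a1 moved to 0.28 under quantile normalization. Quantile normalization sets values by rank. Fn1 ranked above Col1a1 in the batch 1 library (17.44 and 17.41) and below it in both batch 2 libraries (16.85 and 16.96 for Fn1). In the treated libraries the differences were -0.20 ± 0.04 for Col1a1 and -0.16 ± 0.03 for Col1a2, and both were called.

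All 6 tested smooth muscle and myofibroblast markers were called lower in batch 2, beside 22% of all genes. Of these 6, 1 differed by less than 0.5. Tagln, an actin-binding protein of contractile cells, was at 11.27, 8.44 and 8.48 (-2.81 ± 0.08). Acta2, smooth muscle actin, was at 14.96, 13.18 and 13.27 (-1.74 ± 0.05), and Myl9, a myosin light chain, at 10.60, 8.45 and 8.60 (-2.08 ± 0.09). Tpm2 (-0.92 ± 0.06) and Tpm1 (-0.87 ± 0.05) moved less. Summed over the 8 markers on the linear scale, the level was 90986 in batch 1 and 48473 and 47730 in batch 2, and Myh11, the defining myosin of smooth muscle, was at 0.57. Actin genes are alike, and Actg2 (-2.09 ± 0.11) may share reads with Acta2.

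Of 12 proliferation genes 5 stayed within 0.5. In batch 2, 7 were called higher and 3 lower, beside 22.7% and 22% of all genes. After quantile normalization 7 were higher and 4 lower. Aurka, a mitotic kinase, was at 8.36, 9.77 and 9.75 (1.40 ± 0.08). Ccnb1 (1.11 ± 0.07), Cdk1 (1.00 ± 0.06), Mki67 (0.96 ± 0.06) and Bub1 (0.84 ± 0.10), which peak in G2 and mitosis, were also higher. The 3 called lower belong to the same list, so its direction was not uniform. Bmp4 was higher by 1.54 ± 0.11, the largest difference of any list member in that direction, and the neuronal tubulin Tubb3 by 0.88 ± 0.07. Runx2 (-0.28 ± 0.07), Pth1r (-0.52 ± 0.10) and Sp7 (-0.71 ± 0.12) were lower in batch 2, each against the single batch 1 library. Among receptors and ligands, Fgfr2 (-1.01 ± 0.10), Egfr (-0.95 ± 0.11), S1pr1 (-0.94 ± 0.08), Chrdl1 (-1.20 ± 0.07) and Inhbb (-0.87 ± 0.11) were lower, as was Cebpa (-1.11 ± 0.12).

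Outside the lists the nuclear noncoding RNAs Neat1 and Malat1 were among the 6 lowest in batch 2 against batch 1. Neat1 was at 14.37, 10.09 and 9.62 (-4.51 ± 0.09) and Malat1 at 14.37, 11.72 and 11.39 (-2.82 ± 0.19). The 6 largest the other way were Arrdc4 (1.93 ± 0.10), Psd (1.73 ± 0.08), Gm15441 (1.69 ± 0.07), Ppp1r10 (1.68 ± 0.07), Txnip (1.65 ± 0.06) and the cytochrome Cyp1b1 (1.62 ± 0.08). Arrdc4 and Txnip are related arrestin-domain genes known to respond to glucose. Gm15441 lies antisense to Txnip, and whether strand was used in counting is not given in the sources used here, so reads of the pair cannot be told apart. Whether the changes in these RNAs had a part in the matrix, contractile or cell cycle differences was not tested.

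With a single untreated library in batch 1, that library and the batch cannot be told apart within untreated cells, but the 9 treated libraries give an estimate of the batch difference from other samples. This comparison was chosen after the values were seen. In the treated libraries limma called 64.8% of genes between batches (32% higher and 32.8% lower in batch 2), 236 of the 304 list members among them (75 higher and 161 lower), and 5110 of the 5258 genes called in untreated cells (97.2%) had the same direction there. The difference in the treated libraries was -3.57 ± 0.06 for Fmod, -3.26 ± 0.04 for Postn, -2.76 ± 0.05 for Tagln and -1.67 ± 0.03 for Acta2. For Bmp4 it was 1.59 ± 0.06 and for Aurka 1.40 ± 0.05. Across genes, which are not independent replicates, the differences of untreated and treated libraries had a Pearson correlation of 0.884. The difference between the 2 differences was called for 3.44% of genes (2.35% higher and 1.1% lower), and for 38 of the 304 list members (27 higher and 11 lower).

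**Figure D4:**
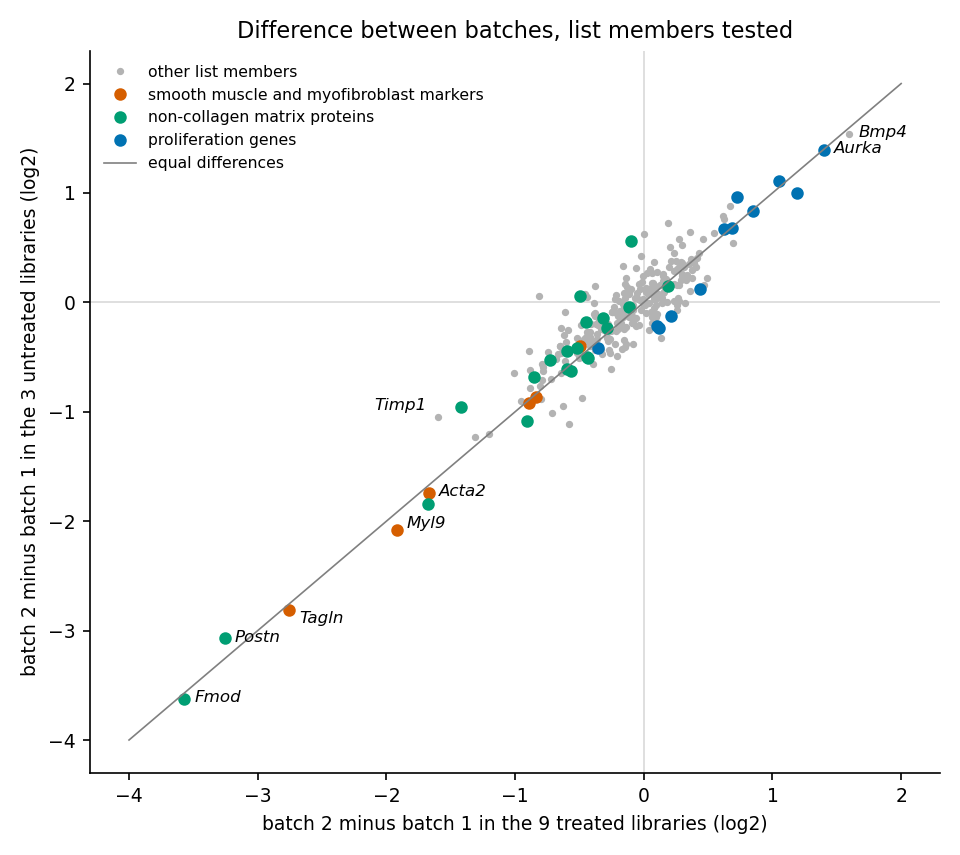
Batch difference of 304 tested list members, in log2 units. The x axis is batch 2 minus batch 1 in the 9 treated libraries, and the y axis is the same in the 3 untreated libraries. Each point is a gene, and the line marks equal differences: Fmod, Postn and Tagln lie at the lower left, Bmp4 and Aurka at the upper right, and Timp1 off the line.

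The untreated levels were then set against the treated groups, in a limma model with groups and batch. The 3 contrasts share the untreated libraries. For TNFa 15.5% of genes were called (9.16% higher and 6.32% lower), and of the list members 78 rose and 43 fell. Of the 12 osteoblast transcription factors 3 fell and 2 rose. Mef2c fell by 0.78 ± 0.09 and Runx2 by 0.60 ± 0.07, while Twist1 (0.33 ± 0.08) and Atf4 (0.21 ± 0.07) rose. The call of Atf4 (limma adjusted p = 0.0407) was lost with each library left out in turn, with a replicate block (limma adjusted p = 0.0547) and in 4 other settings, up to 0.59, and that of Twist1 (limma adjusted p = 0.00673) without either batch 1 library (0.0633 and 0.0974). In other lists Sox9 fell by 0.74 ± 0.09, Hapln1 by 0.76 ± 0.07, Pth1r by 0.65 ± 0.09 and Fgfr2 by 0.82 ± 0.09. Nfkbie (3.71 ± 0.05), Tlr2 (2.99 ± 0.11), Fas (2.26 ± 0.09) and Casp4 (1.61 ± 0.09) rose from untreated levels of 7.99, 7.44, 6.23 and 5.34. Of the 24 TNF receptor complex genes 10 rose and none fell.

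For BMP4 12.2% of genes were called (6.75% higher and 5.47% lower), and 62 list members rose and 22 fell. Tgfb3 rose by 1.02 ± 0.07, Sp7 by 0.80 ± 0.12, Krt14 by 0.66 ± 0.08, Col2a1 by 0.65 ± 0.14, Pth1r by 0.64 ± 0.09, Bmpr2 by 0.63 ± 0.06, Dlx3 by 0.60 ± 0.10 and Sox9 by 0.46 ± 0.09. For TNFa+BMP4 31.2% of genes were called (16.8% higher and 14.4% lower), and 114 list members rose and 50 fell. Timp1 rose by 1.53 ± 0.10 and Krt14 by 0.69 ± 0.08. Erbb3, a receptor of the EGF family, fell by 1.33 ± 0.12, Notch1 by 0.92 ± 0.08, Hapln1 by 0.83 ± 0.07, Mef2c by 0.78 ± 0.09 and Bmp4 by 0.35 ± 0.08. The fall of Bmp4 was smaller than its difference between batches of 1.54. Without a batch term the calls of Runx2, Pth1r, Sox9, Fgfr2, Twist1 and Atf4 for TNFa were lost, as were those named for BMP4 other than Bmpr2 and those of Bmp4, Krt14 and Timp1 for TNFa+BMP4. Their fold changes were the same without that term and their SEs larger, as 0.161 rather than 0.066 for Runx2. The count for BMP4 went from 1438 to 756 without untreated replicate 1 and to 951 without BMP4 replicate 1.

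**Figure D5:**
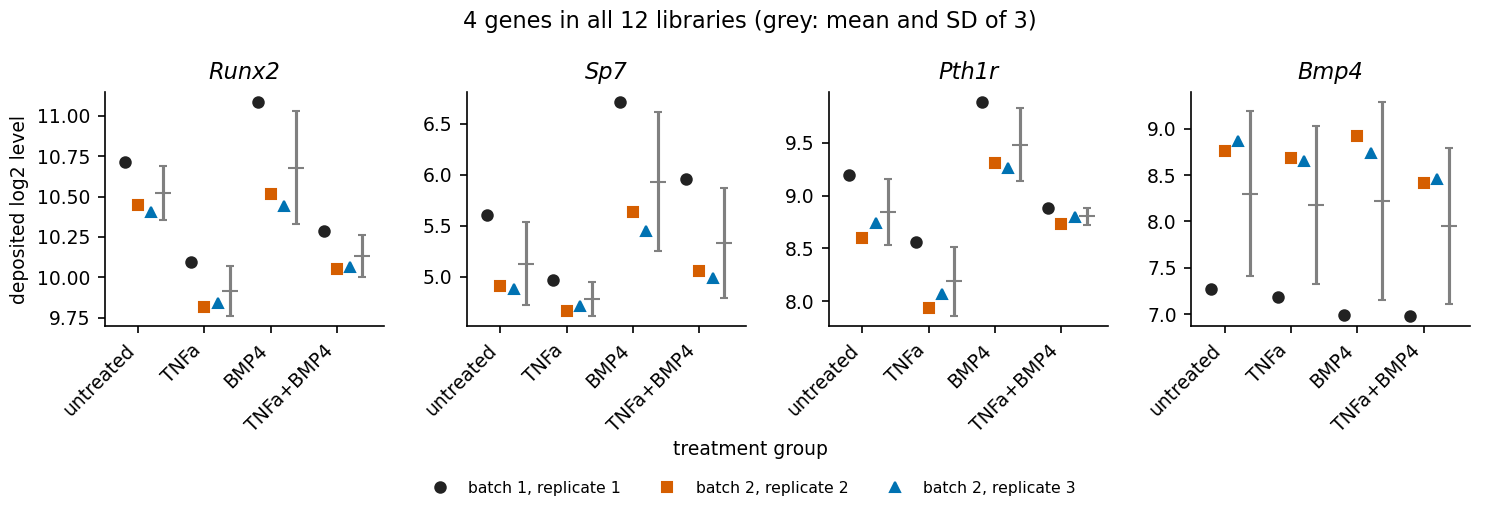
Deposited log2 levels (y axes, each with its own range) of Runx2, Sp7, Pth1r and Bmp4 in the 4 groups (x axes). Points are libraries by batch, and grey bars are the mean and SD of 3. In untreated cells the batch 1 library is above both batch 2 libraries for Runx2, Sp7 and Pth1r and below them for Bmp4, at 7.27 against 8.76 and 8.86.

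Among low genes the deposited levels vary less between libraries than the authors' fold changes do. Rebuilt from the mean over all 12 libraries and the fold changes in the authors' deposited table, the untreated level of Traf1 was 2.80 rather than 4.26, that of Casp4 4.21 rather than 5.34, that of Bcl3 5.45 rather than 6.09, that of Zbp1 0.17 rather than 2.69 and that of Hey1 1.47 rather than 3.24. Alpl became -1.92. Of the 304 list members at 4 or above 303 stayed there, all but Traf1, and Col7a1, Lum and Notch4 were added, at 4.23, 4.22 and 4.08.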

How the data were processed

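Per the labels, RNA was poly(A)-selected and sequenced in pairs of 150 bases; Trim Galore, HISAT2, HOMER and mm10 are listed, without versions, in the submitters' processing notes. Per the file headers, HOMER counted tags over exons of 1 transcript per gene without normalization, and getDiffExpression.pl then tested groups with batch as a factor. The deposited library columns are log2 values whose transformation is not named; the authors' deposited log2 fold changes served only to rebuild levels, and the authors' deposited adjusted p-values were not used. The file header numbers the batches in reverse; the labels' numbers are used. No counts were read, so no counting error is given.

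Genes with a 12-library mean log2 of at least 4 (11765) were fitted in limma 3.58.1 (R 4.3.3) with a variance trend and Benjamini-Hochberg adjustment over all of them, called at an adjusted p under 0.05. The batch difference used a mean per group and batch (4 residual degrees of freedom), and the treatment contrasts used groups plus batch (7). The fits were tested on simulated data. Alternatives were another minimum or none, quantile normalization, no trend, no batch term, a replicate block, other level definitions and each library left out. All p-values are two-sided.

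The 33 lists (408 genes, all matched) and the 20 genes always named were chosen with earlier results of these data known. The rule named the 12 highest entries, in each list the 3 highest and 2 lowest per kb and those listed at 0, the 6 largest batch differences each way, called list members by size for the batch difference, and up to the 2 largest each way per list for treatments. Results of 1 gene that met this rule are not reported here. Promoters came from RefSeq, with 290 list members matched. The batch difference in treated libraries was added after seeing the data.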

Additional observations from a re-analysis of the deposited data

Results flagged for a closer look

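Among the genes named for their batch difference, 6 differed in that respect between untreated and treated libraries by an interaction term in limma (batch 2 minus batch 1 in untreated cells, minus the same averaged over the 3 treated groups). The comparison was chosen after the values were seen. Neat1 fell more between batches in untreated cells (-4.51) than in treated groups (-3.78), a difference of -0.73 ± 0.10 (limma adjusted p = 2.54e-06), and Cebpa did so too (-1.11 and -0.58, difference -0.53 ± 0.14, limma adjusted p = 0.0234). Timp1 fell less in untreated cells (-1.04 and -1.60, difference 0.55 ± 0.07), as did Tnc (-0.96 and -1.42, difference 0.46 ± 0.12), with limma adjusted p = 2.57e-07 and 0.0214. Ppp1r10 rose more in untreated cells (1.68 and 1.24, difference 0.43 ± 0.08), as did Mki67 (0.96 and 0.72, difference 0.24 ± 0.06), with limma adjusted p = 0.000245 and 0.0228. In untreated cells each of these rests on 1 batch 1 library, which is assumed to vary as the batch 2 libraries do. The genes were named for their batch difference in the same libraries, so the p-values describe these libraries and are not independent evidence of a difference.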

How the results depend on the processing

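The batch difference called 5258 genes; it called 4607 to 5218 with other filters, scaling or no trend, 7541 with an additive batch term over all 12 libraries, 7512 with that and a replicate block, and 4823 to 5045 when an untreated batch 2 library was left out. Leaving out the only batch 1 library could not be run. Of 342 alternative values for its named genes 335 kept direction and call, 6 for Col1a1 and Ripk3 passed the threshold, and Col1a1 reversed to 0.28 under quantile normalization; the cause was not tested. Without a batch term the treatments called 383 (TNFa), 114 (BMP4) and 869 genes (TNFa+BMP4) rather than 1822, 1438 and 3673, and calls of named genes such as Runx2, Pth1r and Sp7 were lost with unchanged fold changes. Of 323 alternative values for named treatment genes 28 lost the call, those outside this setting being of Atf4 and Twist1 for TNFa; the replicate block ended no other named call than that of Atf4. Leaving out a library gave 1297 to 1662, 756 to 1332 and 2560 to 3380 calls; for BMP4 it was 756 without untreated replicate 1 and 951 without BMP4 replicate 1, which leave batch 1 with no BMP4 contrast. Replicate numbers 2 and 3 are not said to pair samples: correlations between groups of their differences across genes were 0.02 to 0.16. A replicate block gave 1738, 1329 and 3635 calls. The number of list members at 4 or above, 304, stayed between 302 and 306. TATAAA within 20 to 40 bases before the start was in 5.8% of promoters listed at 0, 2.90% of the highest decile and 2.81% of all, fewer by construction.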
